A study of Mus musculus with 12 samples.

Results

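Loss of *Pax3* was examined in 6 whole mouse embryos collected on day 12.5 of gestation (E12.5), out of the 12 libraries of a series that also holds a *Carm1* line. Of the 6 embryos, 3 were homozygous for the Splotch allele *Sp2H* (*Pax3 Sp2H/Sp2H*, called *Pax3* null below) and 3 were *Pax3* wild type. All 6 came from timed intercrosses of *Pax3 Sp2H* heterozygotes, in a closed colony of mixed strain background, and none carried another named allele or received a treatment. The *Carm1* line, used below only for comparison, gave 3 embryos homozygous for a *Carm1* knockout allele and 3 *Carm1* wild-type embryos, also at E12.5. It was kept in another colony. *Sp2H* is a constitutive allele that alters *Pax3* in every cell from conception, so no value here can be assigned to 1 tissue or stage. Each library was made from the polyadenylated RNA of a homogenized whole embryo. Embryos were genotyped and kept for a high RNA integrity number, and whether their neural tubes were closed is not given in the sources used here. The table of the line lists 23420 genes, all of which belong to the comparison, and 15724 of them had enough counts to be tested.

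PAX3 is a transcription factor with a paired domain and a homeodomain. It is made in the dorsal neural tube, in neural crest cells that leave it, and in the dermomyotome, the part of the somite that gives rise to skeletal muscle. Muscle precursors that migrate into the limbs, diaphragm and tongue depend on it, as do the dorsal root ganglia, the Schwann cell and pigment lineages and the neural crest cells that divide the cardiac outflow tract. Splotch homozygotes are known for open neural tubes, absent limb muscle, reduced spinal ganglia and outflow tract defects. The genes below are ordered by these lineages.

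Library totals lay between 17425749 and 23518692 counts, and 77.0% to 78.2% of listed genes had a count in each library. Wild-type replicate 1 stood apart from the other wild-type libraries in its relation to transcript length. Counts on *Rn45s*, the ribosomal RNA precursor, were 0.374% to 0.381% of the total in the null and 0.764% to 1.7% in the wild-type libraries. Y-linked genes had 100 or more counts in 1 of 3 null and 2 of 3 wild-type libraries, so the groups were not balanced for sex. Nothing in the sources says whether the embryos were littermates. The edgeR *P* values set the group difference against the spread between these embryos, estimated with information shared across genes.

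*Pax3* itself had 22.5, 22 and 18.2 CPM (counts on the gene relative to the library total, scaled by edgeR's TMM factors) in the 3 null embryos and 31, 24.8 and 28.1 CPM in the 3 wild-type embryos. Each null embryo lay below each wild-type embryo. The log2 fold change, null over wild type throughout, was -0.43 (standard error 0.095, edgeR FDR adjusted *P* = 0.0014) and -0.36 (adjusted *P* = 0.0064) in a second edgeR fit whose offsets correct for exonic length and GC. Without null replicate 3 the adjusted *P* of that edgeR fit was 0.072. The gene lies on the minus strand of chromosome 1 from 78101267 to 78197134 of GRCm38. The *Sp2H* allele is a small deletion within the homeobox, and a count over all exons cannot tell its transcript from the wild-type one. This count therefore does not check the genotype labels. Here and below, fewer cells of a type and less RNA per cell cannot be told apart, because whole embryos were sequenced.

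At an FDR adjusted *P* below 0.05, 3851 genes (24.5%) were called different between the genotypes (edgeR quasi-likelihood F test, Benjamini-Hochberg adjustment across the table), 2198 higher (14%) and 1653 lower (10.5%). Without null replicate 3 the count was 2454 and without null replicate 1 2565. The fold changes followed transcript length. Genes whose principal transcript had at most 500 nt had a median log2 fold change of 0.43, and the median fell step by step to -0.12 for transcripts over 6000 nt. Genes called lower had a median transcript length of 4398 nt and those called higher of 1672 nt, against 2826.5 nt for all genes tested. With offsets for exonic length and GC content, 2761 genes were called, 1884 higher and 877 lower, so that the share of higher genes among the calls went from 57.1% to 68.2%. Results below therefore rest on the 1973 genes called with the same sign with and without offsets, 1365 higher (8.68% of genes tested) and 608 lower (3.87%). These are referred to as called in both fits, and they numbered 1293 without null replicate 1 and 1306 without null replicate 3. The groups did not overlap in 98.1% of them and in 39.1% of all genes tested. The median absolute log2 fold change of the genes called in both fits was 0.37, and 75 rose and 56 fell by at least 1 on the log2 scale.

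The relation with length was a property of whole libraries. Transcripts under 1000 nt took 8.47, 7.97 and 8.53% of the counts in the null and 6.08, 6.68 and 6.64% in the wild-type embryos, with no overlap between the groups. Wild-type replicate 1 had the lowest share. The exact permutation test of this share gave *P* = 0.1 (two-sided), the smallest value that 3 embryos against 3 allow. The slope of log2 fold change on log2 exonic length was -0.095 over 15602 genes in the *Pax3* line and -0.0029 in the *Carm1* line. Since the trend follows the groups, it cannot be told apart from an effect of the genotype. Offsets based on all exons of a gene left a median of 0.17 in the shortest class. Offsets based on the principal transcript, chosen after the data had been seen, brought it to 0.0046, and 1523 of the 1973 genes remained called, 1084 higher and 439 lower.

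**Figure D1:**
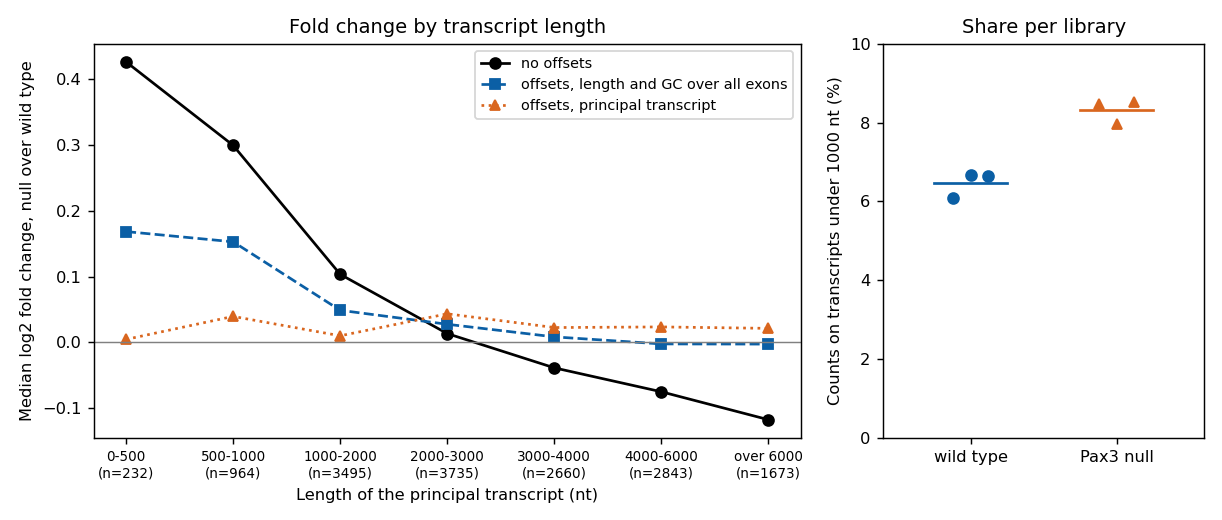
Left, median log2 fold change (null over wild type, vertical axis) of genes in 7 classes of principal transcript length (horizontal axis, nt) in the edgeR fit without offsets (black), with offsets for length and GC over all exons (blue) and with offsets for the principal transcript (orange). Right, share of counts on transcripts under 1000 nt in each library (points) with the group mean (line): the 3 null libraries lie above the 3 wild-type libraries.

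Skeletal muscle genes were lower in *Pax3* null embryos. Of 19 tested regulators of myogenesis and myoblast fusion, 13 were lower in both fits and none was higher, and of 48 genes of the sarcomere and of excitation and contraction 22 were lower and 1 was higher. Over all genes tested 3.87% were lower and 8.68% higher in both fits. The list medians were -0.50 and -0.37 without offsets and -0.46 and -0.43 with them, against 0.02 for all genes with offsets. With 1 library left out at a time, 12 to 13 regulators and 19 to 22 contractile genes were called lower.

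*Myod1*, which commits cells to the muscle lineage, had 11.5, 9.4 and 12.5 CPM in the null and 28.9, 26.3 and 25.3 CPM in the wild-type embryos. The null mean was 41.5% of the wild-type mean (log2 fold change -1.28, standard error 0.099, edgeR FDR adjusted *P* = 4.4e-10, -1.51 with offsets). *Myog*, required for differentiation of myoblasts, had 21.1, 20.4 and 25 CPM against 43.7, 47.4 and 49.7 CPM (log2 fold change -1.09, edgeR adjusted *P* = 6.9e-10). *Myf5*, the first of the myogenic factors to be switched on in the somite, had 3.14, 2.63 and 2.48 CPM in the null and 4.93, 3.97 and 4.78 CPM in the wild-type embryos (log2 fold change -0.75, edgeR adjusted *P* = 0.003). None of these groups overlapped. *Vgll2*, a cofactor of TEAD proteins in muscle, had a log2 fold change of -1.17, and *Mef2c*, whose product acts with the myogenic factors but is also made in heart and brain, of -0.61 (-0.40 with offsets).

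Genes of myoblast fusion fell with them. *Tmem8c* encodes myomaker and *Gm7325* encodes myomixer, membrane proteins that fuse myoblasts. *Tmem8c* had 3.5, 2.36 and 2.82 CPM in null and 5.37, 6.56 and 6.58 CPM in wild-type embryos (log2 fold change -1.10, edgeR adjusted *P* = 3.1e-05), and *Gm7325* 1.12, 1.18 and 2.14 against 3.76, 3.28 and 3.25 CPM (log2 fold change -1.21, edgeR adjusted *P* = 0.00048). *Cdh15*, encoding M-cadherin of myoblasts, had 8.75, 8.26 and 8.46 against 18.2, 18.9 and 15.8 CPM, a log2 fold change of -1.06. *Mstn*, encoding the muscle growth inhibitor myostatin, was among the 12 genes with the largest decrease at a mean of at least 1 CPM (2.24, 1.91 and 1.8 against 5.81, 4.6 and 5.72 CPM, log2 fold change -1.46, edgeR adjusted *P* = 1.5e-06).

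At the neuromuscular junction 3 receptor subunits and their clustering kinase were lower. *Chrna1*, the alpha subunit of the muscle acetylcholine receptor, had 2.87, 1.82 and 2.39 CPM in null and 6.25, 4.95 and 5.68 CPM in wild-type embryos (log2 fold change -1.26, edgeR adjusted *P* = 1.2e-05). *Chrnd*, the delta subunit, had 0.629, 0.727 and 0.769 against 1.37, 1.84 and 1.49 CPM (-1.14, adjusted *P* = 0.0077 from the same edgeR test). *Musk*, the receptor kinase that clusters these subunits, had 1.44, 0.727 and 1.32 against 2.83, 3.34 and 2.52 CPM (-1.31, adjusted *P* = 0.00046). *Agrn*, encoding the nerve signal agrin that acts through MUSK, had 643, 708 and 644 against 613, 628 and 540.3 CPM and a log2 fold change of 0.15. Of 9 tested genes of the list 3 (33.3%) were lower in both fits, against 3.87% of all genes, and none was higher. *Chrnb1*, the third of these, had overlapping groups (log2 fold change -0.45) and its call was lost without null replicate 1 or 2 or wild-type replicate 1.

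Contractile genes fell by different amounts. *Klhl40* and *Klhl41*, which stabilise thin filaments, had log2 fold changes of -1.27 (1.21, 1.59 and 1.75 against 4.3, 3.62 and 3.03 CPM) and -1.03 (9.34, 9.08 and 9.62 against 20, 19 and 18.1 CPM). *Neb*, the thin filament ruler nebulin, had 18.5, 21.8 and 21.6 CPM in null and 54, 42.2 and 36.2 CPM in wild-type embryos (-1.11, edgeR adjusted *P* = 3.6e-05). *Cacna1s*, the voltage sensor of skeletal muscle, had a log2 fold change of -1.15 and *Cacng1*, another subunit of that channel, of -1.16. *Myom2*, a protein of the M band, had 1.57, 2.27 and 2.31 CPM in null and 8.49, 3.97 and 3.76 CPM in wild-type embryos. The wild-type spread was set by replicate 1, and the call of *Myom2* (edgeR adjusted *P* = 0.018) was lost without null replicate 1, 2 or 3. *Myh3*, the embryonic myosin, had 62.8, 73.8 and 72 against 173, 139 and 113 CPM (-1.03), and the call was lost without null replicate 1, 2 or 3 or wild-type replicate 2. That of *Cacng1* was lost without null replicate 3 or wild-type replicate 1.

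Actin genes of the sarcomere were lower too. *Acta1* had 27, 25.9 and 28.8 CPM in null and 43.6, 44 and 43.3 CPM in wild-type embryos (log2 fold change -0.69, -0.92 with offsets), and *Actc1*, the main actin of embryonic skeletal muscle and of heart, 143, 157 and 151 against 239, 218 and 220.1 CPM (-0.60, edgeR adjusted *P* = 7.0e-09). The log2 fold change was -0.20 for the troponin gene *Tnnc1* and -0.07 for the tropomyosin gene *Tpm1*. Neither passed the threshold without offsets, and *Tnnc1* passed it with them (-0.43, edgeR adjusted *P* = 0.001). *Myl4*, the atrial and embryonic light chain, was the list member called higher in both fits (log2 fold change 0.31, 0.33 with offsets), and 0.04 with offsets for the principal transcript, in which it was not called.

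Shown here are the 150 bases before the RefSeq start (GRCm38.p6) of 5 muscle genes that were lower in both fits and that hold CAGCTG, the E-box preferred by MYOD1 and myogenin, with the E-box in capitals. They are printed to show where this sequence lies in genes whose levels moved together.
*Chrna1*, chr2:73580339-73580488, minus strand: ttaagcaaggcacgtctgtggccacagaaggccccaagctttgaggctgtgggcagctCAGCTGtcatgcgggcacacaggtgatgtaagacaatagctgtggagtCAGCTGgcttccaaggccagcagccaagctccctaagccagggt
*Musk*, chr4:58285812-58285961, plus strand: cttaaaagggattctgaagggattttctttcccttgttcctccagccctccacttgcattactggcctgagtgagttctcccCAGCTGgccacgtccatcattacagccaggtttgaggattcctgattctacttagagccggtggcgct
*Klhl40*, chr9:121777457-121777606, plus strand: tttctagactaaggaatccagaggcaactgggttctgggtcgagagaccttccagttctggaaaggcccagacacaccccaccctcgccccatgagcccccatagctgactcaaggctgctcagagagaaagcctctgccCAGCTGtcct
*Klhl41*, chr2:69669970-69670119, plus strand: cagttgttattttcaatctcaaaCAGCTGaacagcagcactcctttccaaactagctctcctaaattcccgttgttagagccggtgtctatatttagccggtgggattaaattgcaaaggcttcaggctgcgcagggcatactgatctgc
*Cacna1s*, chr1:136052661-136052810, plus strand: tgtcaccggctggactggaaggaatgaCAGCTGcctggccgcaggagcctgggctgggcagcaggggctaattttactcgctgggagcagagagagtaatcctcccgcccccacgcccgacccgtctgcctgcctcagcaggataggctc

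The first E-box base lay 92 and 44 bases before the start in *Chrna1*, 68 in *Musk*, 10 in *Klhl40*, 127 in *Klhl41* and 123 in *Cacna1s*. The sequence, which is its own complement and so reads the same on both strands, was searched in the 250 bases before each start. Of all 32851 promoters in the RefSeq reference 13% held it, and of those of tested genes 12.7%. Of the 22 contractile genes lower in both fits, 18 had an entry and 11 of these held the E-box. It was also present in 8 of 20 contractile genes with an entry that were not called in both fits, so it was not limited to the genes that fell. Among the lower regulators of myogenesis with an entry, 1 of 9 held it, namely *Musk*. Outside these windows nothing was searched, and a match shows no binding. GTCACG, the core that the paired domain of PAX3 is known to bind, was searched on both strands. It was held by 6.93% of all promoters and 10.5% of those of tested genes. Of the 5 lower textbook targets with an entry 1 held it. The palindromic P2 site of paired-class homeodomains was held by 0.384% of all promoters, 0.158% of those of tested genes and none of these targets. Among the lower regulators of myogenesis with an entry 1 of 9 held the P2 site, namely *Mef2c*.

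Genes of the dermomyotome and of migrating muscle precursors, which act earlier in the lineage, were lower in part. Of 25 tested, 10 were lower and 1 was higher in both fits (median log2 fold change -0.21, -0.19 with offsets). These are 40% and 4%, against 3.87% and 8.68% of all genes tested. *Met*, the receptor that muscle precursors need to leave the somite and a textbook target of PAX3, had 14.1, 14.1 and 15.3 CPM in null and 22.5, 20.7 and 18.8 CPM in wild-type embryos (log2 fold change -0.52, edgeR adjusted *P* = 0.00015). *Fgfr4*, another reported target, had 5.93, 7.31 and 8.46 against 11.9, 12.3 and 11.1 CPM (-0.70, adjusted *P* = 0.00015 from edgeR), and *Dmrt2*, which links PAX3 to *Myf5*, 11, 11.3 and 11.8 against 16.5, 17.6 and 14.4 CPM (-0.51, adjusted *P* = 0.00058). In all 3 genes the groups were separate. *Msc* and *Heyl* had log2 fold changes of -0.65 and -0.52. *Lbx1*, a homeobox gene of migrating limb precursors that is also used in the spinal cord, had 5.48, 6.18 and 6.07 CPM in null and 6.2, 7.02 and 7.05 CPM in wild-type embryos and was not called without offsets (log2 fold change -0.20, edgeR adjusted *P* = 0.29). *Ebf3*, *Eya2*, *Ebf2* and *Itm2a* were lower too, with log2 fold changes between -0.45 and -0.25, and the call was lost for *Ebf3* without null replicate 1, 2 or 3 or wild-type replicate 1 or 3. *Tcf21*, a factor of head muscle and visceral mesoderm, was the member that rose, with 11.1, 10.5 and 10.5 against 5.91, 7.25 and 7.13 CPM (0.65, adjusted *P* = 0.00024 from edgeR). Of 21 genes named as PAX3 targets in textbooks and reviews, 6 were lower, *Myf5*, *Fgfr4*, *Met*, *Dmrt2*, *Ret* and *Itm2a*, and 1 was higher, *Msx1*. These are 28.6% and 4.76%, against 3.87% and 8.68% of all genes tested.

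**Figure D2:**
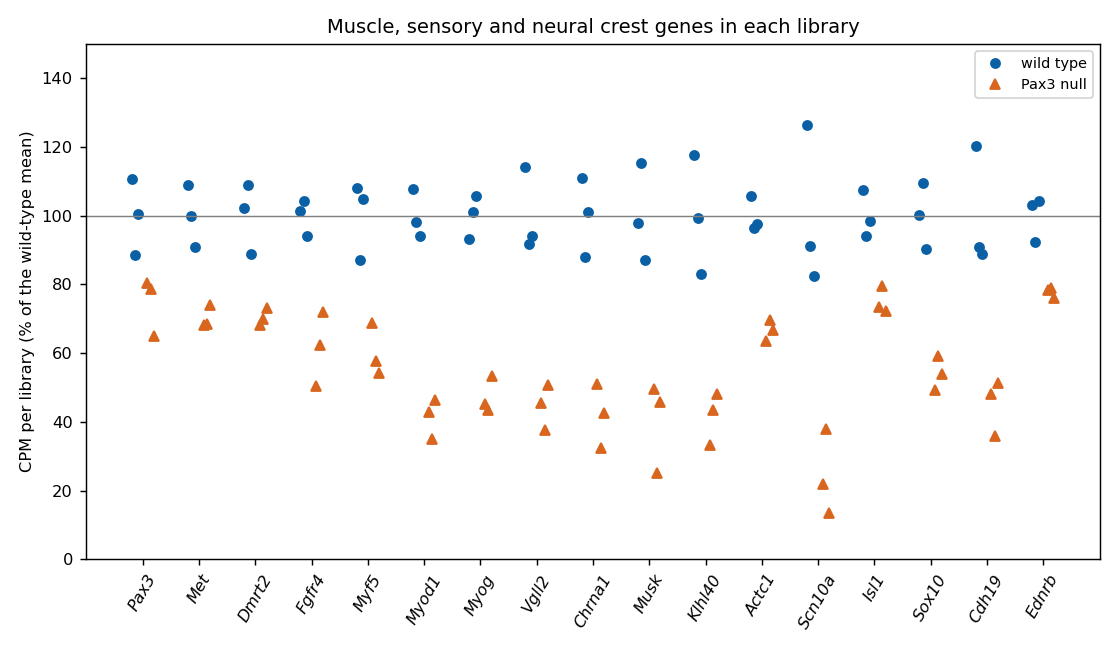
CPM of 17 genes in each of the 6 libraries as a percentage of the wild-type mean of the gene (vertical axis, line at 100%), with wild-type embryos as circles and *Pax3* null embryos as triangles. The triangles lie below the circles in all 17 genes, lowest in *Scn10a* and highest in *Pax3*, *Isl1* and *Ednrb*. The 17 genes were picked from those called lower in both fits, so their separation is no independent result.

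The sensory list followed, with 13 of 27 tested lower in both fits and none higher (median log2 fold change -0.33, -0.39 with offsets). The share lower was 48.1%. Over all genes tested 3.87% were lower and 8.68% higher. Genes of nociceptors were among the lower members of the list. *Scn10a*, a sodium channel of pain-sensing neurons, had 0.763, 1.32 and 0.47 CPM in null and 4.39, 3.16 and 2.86 CPM in wild-type embryos (log2 fold change -2.04, standard error 0.29, edgeR adjusted *P* = 1.0e-05). *Tlx2*, a homeobox gene of crest-derived neurons, had 1.48, 1.77 and 1.32 against 4.44, 4.31 and 4.01 CPM (-1.49), *Pirt*, which modulates heat-sensing channels, 2.69, 2.36 and 2.86 against 7.18, 7.82 and 6.45 CPM (-1.44), and *Prrxl1*, which encodes the nociceptor factor DRG11, 0.808, 1.41 and 1.37 against 2.64, 3.22 and 2.01 CPM (-1.12).

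*Isl1*, a homeobox factor of most sensory neurons, had 31.7, 34.3 and 31.2 CPM in null and 46.3, 40.6 and 42.5 CPM in wild-type embryos (log2 fold change -0.42, edgeR adjusted *P* = 0.00023), and *Pou4f1* 20.8, 21.2 and 23.9 against 31, 29 and 29.9 CPM (-0.46, adjusted *P* = 0.0002). Both are also made in the brain or in motor neurons. *Neurog1*, which starts sensory neurogenesis in cranial and spinal ganglia, had 13.8, 15 and 9.7 against 12.3, 13.6 and 13.9 CPM and was not called (-0.06, edgeR adjusted *P* = 0.78). *P2rx3*, *Runx3*, *Neurod1*, *Scn9a*, *Ret* and *Gfra1* were also lower in both fits, with log2 fold changes between -0.75 and -0.32. Calls were lost for *Runx3* without null replicate 2 or 3 or wild-type replicate 2 or 3, for *Ret* without null replicate 1 or wild-type replicate 1 and for *Gfra1* without null replicate 1. Beyond the list, *Ppp1r1c*, *Cdhr1* and *Ptprr* were among the 12 genes with the largest decrease (-2.10, -1.55 and -1.31). *Ppp1r1c*, which encodes an inhibitor of protein phosphatase 1, had 1.08, 1.82 and 1.75 against 6.1, 5.7 and 7.9 CPM.

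Genes of crest-derived glia were lower too, 7 of 20 tested in both fits and none higher (median log2 fold change -0.32, -0.30 with offsets). The share lower was 35%, against 3.87% of all genes tested. *Sox10*, the factor that maintains the glial and pigment lineages, had 14.2, 17.1 and 15.6 CPM in null and 28.9, 31.6 and 26.1 CPM in wild-type embryos, a log2 fold change of -0.89 (standard error 0.093, edgeR adjusted *P* = 7.8e-08, -1.07 with offsets). *Erbb3*, the neuregulin receptor of Schwann cell precursors, had 25.4, 24.3 and 26.1 against 38.5, 40 and 34.6 CPM (-0.59, adjusted *P* = 7.1e-06). *Cdh19*, a cadherin of Schwann cell precursors, had 1.53, 1.14 and 1.62 against 3.81, 2.88 and 2.82 CPM (-1.15), *Gfra3* 2.92, 3.13 and 2.95 against 5.47, 5.01 and 5.08 CPM (-0.80), and *Itga4*, an integrin of migrating crest cells that blood cells and muscle precursors also carry, 50.9, 44.8 and 46.2 against 88.5, 78.7 and 76.4 CPM (-0.79, edgeR adjusted *P* = 1.6e-09). *Sox8* had a log2 fold change of -0.43, with the call of *Sox8* lost without null replicate 2 or wild-type replicate 2.

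Pigment cell genes were mostly not called, though 11 of 13 tested had a log2 fold change below 0 (median -0.20, -0.26 with offsets). The summed level of the list was 143 to 154 CPM in null and 167 to 189 CPM in wild-type embryos without overlap. *Ednrb*, given next, made up a large part of this sum, and with its CPM taken out the sums of the groups were no longer separate. Of 17 genes on the list 13 could be tested, and 1, *Ednrb*, was lower in both fits (76, 76.6 and 73.7 CPM in null and 100.2, 89.6 and 101 CPM in wild-type embryos, log2 fold change -0.37, edgeR adjusted *P* = 3.5e-05). *Ednrb* is an endothelin receptor of several crest lineages and not of melanoblasts alone. *Mlph* had a log2 fold change of -1.18 with overlapping groups (0.314, 0.59 and 0.256 against 1.12, 1.15 and 0.427 CPM). *Dct*, *Tyrp1* and *Mitf*, which the pigment epithelium of the eye also expresses, had log2 fold changes of -0.24, -0.71 and 0.09, and none was called.

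In the sympathetic list a single enzyme stood apart. The summed level of the list went the other way, with 321 to 340 CPM in null and 291 to 304 CPM in wild-type embryos without overlap. Without offsets 4 members were called higher and 2 lower. *Dbh*, the enzyme that converts dopamine to noradrenaline, had 0.584, 0.499 and 0.385 CPM in null and 2.64, 2.13 and 2.86 CPM in wild-type embryos, the largest decrease among the named genes (log2 fold change -2.39, standard error 0.30, edgeR adjusted *P* = 1.4e-06). It stayed called in each fit that left out a library. *Th*, an earlier enzyme of the pathway, had 3.73, 2.95 and 4.02 against 4.49, 5.12 and 3.97 CPM with overlapping groups (-0.34, edgeR adjusted *P* = 0.15). Besides *Dbh*, *Hand1* was lower (-0.45) and *Hand2* higher (0.39) in both fits, of 20 genes tested. The shares were 10% lower and 5% higher, against 3.87% and 8.68% of all genes tested. Both HAND factors are also made in heart and limb. Their calls were lost for *Hand1* without null replicate 3 or wild-type replicate 1 or 2 and for *Hand2* without null replicate 1 or 2 or wild-type replicate 1 or 2.

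Genes of the cardiac neural crest and outflow tract did not move together. Of 33 tested, 3 were lower and 6 higher in both fits (median log2 fold change 0.09, 0.03 with offsets). These are 9.09% and 18.2%, against 3.87% and 8.68% of all genes tested. *Tfap2b*, an AP-2 factor of crest cells, had 79.6, 73.1 and 81.6 CPM in null and 114, 98.2 and 111 CPM in wild-type embryos (log2 fold change -0.48, edgeR adjusted *P* = 2.2e-06), and *Tfap2a* 22.8, 22.3 and 21.9 against 30.2, 32 and 29.5 CPM (-0.46, adjusted *P* = 0.00013). *Isl1*, given above, was the third. *Msx1*, a homeobox gene of facial and limb mesenchyme, had 32.8, 33.3 and 34.8 against 22.5, 25.8 and 23.5 CPM (0.48, 0.36 with offsets, edgeR adjusted *P* = 9.2e-05). *Twist1*, a factor of crest mesenchyme, had 0.42 without offsets and 0.17 with them, and lost its call without null replicate 3. *Tbx2*, *Hand2*, *Crabp2* and *Foxc1* were the others that were higher, with log2 fold changes between 0.30 and 0.40. *Sema3c*, a guidance cue of crest cells in the outflow tract, had 41.7, 38.8 and 49.2 against 49.1, 44.4 and 44.1 CPM (-0.10, edgeR adjusted *P* = 0.42).

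Heart muscle genes were mostly not called or higher. Of 28 genes tested, 5 were higher and 1, *Actc1*, was lower in both fits (17.9% and 3.57%, against 8.68% and 3.87% of all genes tested). *Myl7*, the atrial regulatory light chain, had 29.6, 31.4 and 27.7 CPM in null and 14.9, 17.2 and 17.7 CPM in wild-type embryos (log2 fold change 0.82, edgeR adjusted *P* = 1.6e-07) and 0.49 with offsets. *Nppa*, the natriuretic peptide of the atria, had 35.7, 37.9 and 35.6 against 20.7, 23.4 and 26.9 CPM (0.61, 0.32 with offsets). Both transcripts are short, with 590 and 865 nt. *Myl3* and *Myl2*, the ventricular light chains, had 0.51 and 0.44, and 0.25 and 0.19 with offsets for the principal transcript, in which *Myl2* was not called. *Tnnt2*, cardiac troponin T, had 55.9, 57.9 and 55.7 against 45.9, 45.1 and 49.4 CPM (0.26), and 0.04 with offsets for the principal transcript, in which it was not called either. *Myh7*, the slow myosin of ventricle and muscle, had overlapping values of 83.7, 123 and 88.7 CPM in null and 112, 81.1 and 71.2 CPM in wild-type embryos.

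The dorsal neural tube, where *Pax3* is expressed, had no gene called in both fits among 34 tested. Median log2 fold changes of the list were 0.07 without and -0.0018 with offsets. Its summed level, not corrected for length, was 830 to 869 CPM in null and 793 to 817 CPM in wild-type embryos without overlap. *Gdf7*, a signal of the roof plate, was called without offsets and not with them (4.31, 4.72 and 4.06 CPM in null and 2.73, 2.47 and 2.52 CPM in wild-type embryos, log2 fold change 0.75, 0.34 with offsets). *Wnt1* and *Zic1* had log2 fold changes of 0.14 and 0.10, of which *Zic1* was called with offsets (0.19, edgeR adjusted *P* = 0.0022). Of the other 7 *Pax* genes tested none was called, and *Pax7*, the closest relative of *Pax3*, had 21.3, 21.9 and 21.5 CPM in the null and 23.3, 21.9 and 22.9 CPM in the wild-type embryos. In the ventral list 3 of 28 genes were higher in both fits and none was lower (median 0.21, 0.15 with offsets). That is 10.7% higher, close to the 8.68% of all genes tested. The summed level of the ventral list was 508 to 523 CPM in null and 447 to 468 CPM in wild-type embryos without overlap. Fits that left out 1 library called 2 to 4 higher and 0 to 1 lower. *Gli1*, a readout of Hedgehog signalling, had 81, 87.4 and 81.4 against 59.2, 70 and 66.8 CPM (0.34, edgeR adjusted *P* = 0.0003), and *Evx2* and *Lhx4* had 0.59 and 0.51, with the call of *Lhx4* lost without null replicate 1 or 3 or wild-type replicate 2 or 3 and that of *Evx2* with offsets for the principal transcript (0.27). Among neural progenitor genes *Sox21* (52.5, 50 and 39.5 against 30.5, 33.1 and 32.4 CPM, 0.56), *Sox1* (0.36) and *Sox2* (0.29) were higher in both fits. These 3 of 24 tested are 12.5%, against 8.68% of all genes, and 1 to 5 were higher with a library left out. *Sox1* lost its call without null replicate 1 or 2 or wild-type replicate 1 and *Sox2* without null replicate 2.

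Of 34 tested genes of the neuronal cytoskeleton and synaptic vesicles 5 were lower (14.7%, against 3.87% of all genes) and 3 higher (8.82%, against 8.68%) in both fits. The log2 fold change was below 0 in 27 of them (median -0.08, -0.06 with offsets), and their summed level was 4420 to 4738 CPM in null and 4803 to 5169 CPM in wild-type embryos without overlap. With 1 library left out the lower calls numbered 4 to 6 and the higher calls 1 to 3. The neurofilament genes *Nefl* (147, 145 and 155 CPM in null and 183, 191 and 189.5 CPM in wild-type embryos, log2 fold change -0.34) and *Nefm* (-0.21) were lower in both fits, and *Stx1a*, a syntaxin of the synaptic release machinery, was higher (28.5, 32.6 and 32.4 against 20.7, 23.5 and 22.5 CPM, 0.48). *Syp* (0.24) and *Nsg2* (0.17), called higher, and *Elavl4* (-0.30), called lower, lost their calls, for *Syp* without null replicate 1 or 3 or wild-type replicate 1, for *Nsg2* without null replicate 1 or 3 or wild-type replicate 1 or 2 and for *Elavl4* without null replicate 1 or 3 or wild-type replicate 1 or 3. Of 24 forebrain patterning genes 3 were lower in both fits (12.5%, against 3.87% of all genes), among them *Neurod6* (-0.65) and *Eomes* (-0.29). With offsets for the principal transcript 1 of the 3 was also called. These calls were lost for *Neurod6* without null replicate 1 or 2 or wild-type replicate 1, 2 or 3 and for *Eomes* without null replicate 1, 2 or 3 or wild-type replicate 2 or 3. None of 10 choroid plexus genes was called (median -0.22).

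**Figure D3:**
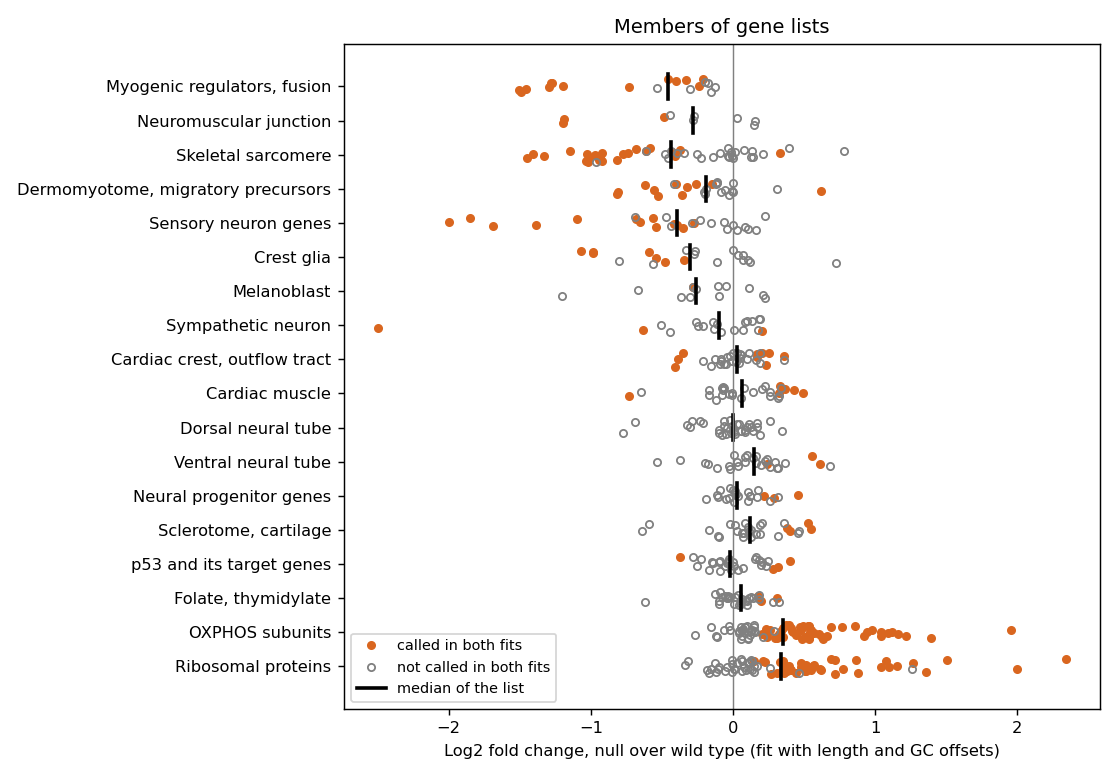
Log2 fold change (null over wild type, edgeR fit with length and GC offsets, horizontal axis) of each tested member of 18 gene lists (rows), filled where the gene was called in both fits, with the median of each list as a bar. Filled points of the sensory and glial lists lie to the left of 0, those of the ribosomal protein and oxidative phosphorylation (OXPHOS) lists to the right, and the dorsal neural tube list has no filled point.

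Genes of ribosomal proteins and of oxidative phosphorylation were higher in *Pax3* null embryos. Cytosolic ribosomal proteins build the translating ribosome, and the subunits of oxidative phosphorylation build the respiratory chain and ATP synthase of mitochondria. Of 76 tested genes of ribosomal proteins 42 were higher in both fits and none was lower, and of 79 subunits of oxidative phosphorylation 50 were higher and none was lower, against 8.68% of all genes. The summed level of the ribosomal protein genes was 44512 to 46788 CPM in null and 31723 to 37146 CPM in wild-type embryos, and that of the oxidative phosphorylation genes 9279 to 9596 and 6860 to 7705 CPM. Neither sum overlapped between the groups.

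*Rps29* had 456, 491 and 499 CPM in null and 61, 103 and 76.9 CPM in wild-type embryos, and its log2 fold change was 2.58 (standard error 0.22, edgeR adjusted *P* = 0.0026). *Rps28* had 364, 409 and 385 against 76.3, 101 and 94.8 CPM (2.08), *Rpl38* 296, 303 and 330.0 against 66.1, 96.4 and 83.1 CPM (1.91), and *Rpl39* had a log2 fold change of 1.47. Their principal transcripts have 390, 382, 371 and 612 nt. Offsets for the principal transcript left 2.23, 1.70, 1.54 and 1.24. *Atp5k*, a small subunit of ATP synthase, had 66.2, 78.8 and 77.7 against 12.7, 17.5 and 15 CPM (2.29, edgeR adjusted *P* = 1.3e-12, 1.91 with those offsets), *Ndufa1* and *Ndufs6* of complex I had 1.66 and 1.35, and *Cox7a1* of complex IV 1.39. *Tomm7*, a small protein of the mitochondrial import pore, had 68, 64.7 and 67.7 against 12.5, 23.9 and 21 CPM (1.80). The groups were separate in each of these genes. *Rpl37* and *Rps21*, among the genes with the smallest adjusted *P*, had 1.25 and 1.38. Calls were lost for *Tomm7* without null replicate 1 and for *Cox7a1* without null replicate 2 or 3.

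Within these lists the increase followed length. The 13 ribosomal protein genes with principal transcripts of at most 500 nt had a median log2 fold change of 0.64 without offsets and 0.36 with offsets for the principal transcript, and the 34 genes over 800 nt had 0.20 and 0.05. For oxidative phosphorylation the 9 shortest genes had 1.30 and 0.85, and the 39 genes over 800 nt 0.20 and 0.17. The 66 other protein-coding genes of at most 500 nt had 0.44 and 0.07, and 25 of them were higher in both fits. With both kinds of offset 33 ribosomal protein and 45 oxidative phosphorylation genes stayed called. Many ribosomal protein genes have processed copies in the genome, and how reads shared with such copies were counted is not given in the sources used here, so their levels are uncertain.

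Small RNA genes and an antisense transcript were also among the leading increases. *Mir219-1* had 2.47, 2.36 and 1.84 CPM in null and 0.146, 0.115 and 0.214 CPM in wild-type embryos (log2 fold change 3.71, 3.04 with offsets), and *Snord104*, a small nucleolar RNA gene, 9.56, 12.7 and 11.7 against 2.83, 1.96 and 2.01 CPM (2.31). Both annotated RNAs, of 110 and 70 nt, are shorter than a sequencing read of 150 bp, so these counts come from fragments of longer RNA and do not measure the mature small RNA. *Nr2c2ap*, which encodes a partner of a nuclear receptor, had 1.98, 2.36 and 3.21 against 0.146, 0.633 and 0.427 CPM (2.65), and *Snhg8*, a noncoding host gene of a small nucleolar RNA, 33.2, 34.4 and 35.9 against 12.7, 12.8 and 12.7 CPM (1.43). *2610019E17Rik* is annotated as antisense, and without a stated strand setting its reads cannot be told from those of its partner. The wild-type values of *Mir219-1* and *Nr2c2ap* lay under 1 CPM, and *Mir219-1* had 3, 2 and 5 wild-type counts, which makes these folds imprecise.

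**Figure D4:**
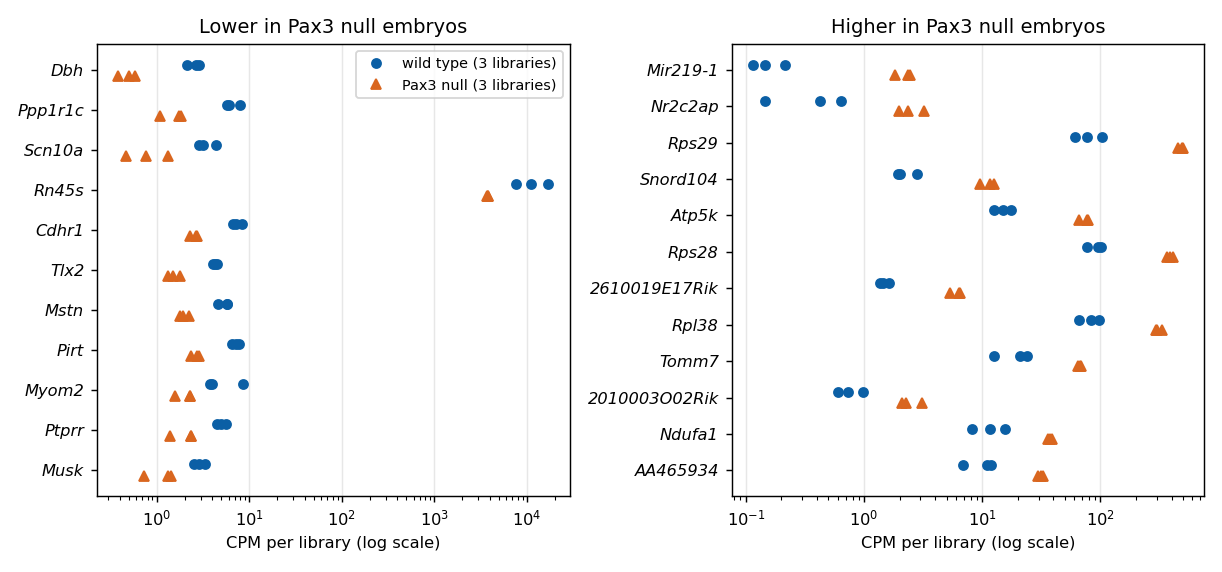
CPM per library (log scale, horizontal axis) of 11 of the 12 genes with the largest decrease (left) and of the 12 with the largest increase (right) among genes called in both fits, with wild-type embryos as circles and *Pax3* null embryos as triangles. The groups are separate in each panel row because the genes were chosen that way.

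Of the 23 genes in that plot *Rn45s* was the most abundant. It had 3781, 3745 and 3831 CPM in null and 7581, 17031 and 11096 CPM in wild-type embryos (log2 fold change -1.66, edgeR adjusted *P* = 0.036), and the call was lost without null replicate 1, 2 or 3 or wild-type replicate 3. It has no annotated length, so the offsets did not correct it. The 3 null embryos were close together and the wild-type embryos were spread. Ribosomal RNA precursor is not polyadenylated as a rule, so its level in these libraries also depends on the enrichment step, whose part in the result was not tested.

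Some cartilage genes were higher. Of 28 genes of the sclerotome and cartilage, 4 were higher in both fits and none was lower (median log2 fold change 0.12, 0.12 with offsets). The share higher was 14.3%, against 8.68% of all genes tested. Fits that left out 1 library called 2 to 4 higher and 0 to 1 lower. The 4 genes called higher with all libraries encode fibril-associated or minor fibrillar collagens of cartilage. *Col11a2* had 34.6, 41.9 and 41 CPM in null and 25.6, 28.6 and 19 CPM in wild-type embryos (0.68, edgeR adjusted *P* = 0.0022), *Col9a1* 128, 134 and 131 against 102, 111 and 91.7 CPM (0.36, adjusted *P* = 9.4e-05), and *Col9a2* and *Col9a3* had 0.59 and 0.64. Calls were lost for *Col9a2* without wild-type replicate 1 and for *Col9a3* without wild-type replicate 1, 2 or 3. The more abundant *Col2a1* had 526, 633 and 623 against 536, 542 and 402 CPM (0.26, adjusted *P* = 0.14), and *Sox9* and *Pax1* had 0.06 and -0.03.

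Loss of p53 function and folate supply are both known to modify neural tube defects of Splotch embryos. Of 30 genes, p53 and its targets, 3 were higher and 1 was lower in both fits (10% and 3.33%, against 8.68% and 3.87% of all genes, median -0.06). *Cdkn1a*, the cell cycle inhibitor p21, was the lower one (17.3, 16.8 and 19.2 CPM in null and 23.2, 21.6 and 22.1 CPM in wild-type embryos, log2 fold change -0.34, edgeR adjusted *P* = 0.0052), and the apoptosis gene *Bax* was higher (86.1, 81.6 and 92.5 against 51.4, 60.3 and 59.2 CPM, 0.60, 0.28 with offsets), with *Rps27l* (0.55) and *Btg2* (0.32). *Trp53* itself had 122, 134 and 116 against 137, 132 and 135 CPM (-0.13, adjusted *P* = 0.11 from edgeR). Of 31 folate and thymidylate genes 3 were higher (9.68%) and none was lower, with log2 fold changes of 0.29 for *Tk1*, which salvages thymidine, and 0.21 for *Dut*, which keeps uracil out of DNA. Calls were lost for *Btg2* without null replicate 1 and for *Dut* without null replicate 1 or wild-type replicate 1. *Tyms*, which makes thymidylate anew, had 0.02. Of 30 DNA replication and cell cycle genes 2 were higher, *E2f1* and *Pcna*, and 2 lower, *Mki67* and *Mcm4*, with log2 fold changes between -0.32 and 0.33. Of these 4 each lost its call without at least 1 library, for *Mki67* without null replicate 1, 2 or 3 or wild-type replicate 1 or 2, for *Mcm4* without null replicate 3 or wild-type replicate 2, for *E2f1* without null replicate 1 or wild-type replicate 2 and for *Pcna* without null replicate 1, 2 or 3 or wild-type replicate 1.

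Of 39 *Hox* genes, which set position along the body axis, 5 were higher and 2 lower in both fits (median 0.09, -0.02 with offsets). These are 12.8% and 5.13%, against 8.68% and 3.87% of all genes tested. Fits that left out 1 library called 1 to 6 higher and 1 lower. Of the 5 higher genes 3 were also called with offsets for the principal transcript. *Hoxb4* had the largest increase (30.2, 31.3 and 30.4 CPM in null and 22.9, 21 and 22.6 CPM in wild-type embryos, 0.46, edgeR adjusted *P* = 0.00014) and *Hoxb9* the largest decrease (68, 61.5 and 66.9 against 79.9, 79.9 and 79.6 CPM, -0.30, adjusted *P* = 0.00046) among those called. *Hoxd11* had 0.26 without offsets and -0.14 with offsets for the principal transcript, so its direction depended on the length used. Calls were lost for *Hoxa9* without null replicate 1, 2 or 3 or wild-type replicate 1 or 3, for *Hoxa11* without null replicate 1 or 2 or wild-type replicate 3, for *Hoxb3* without null replicate 2 or 3 or wild-type replicate 1 or 2, for *Hoxc10* without null replicate 1, 2 or 3 or wild-type replicate 1, 2 or 3 and for *Hoxd11* without null replicate 1 or 2 or wild-type replicate 3.

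Null and wild-type embryos of a mixed background can also differ in the chromosome segment that travels with the *Sp2H* allele. Of 126 tested genes within 10 Mb of *Pax3* on chromosome 1, 42 (33.3%, 95% Wilson interval 25.7% to 41.9%) were called without offsets, against 23% from 10 to 30 Mb, 23.9% farther on the chromosome and 24.5% on other chromosomes. Called in both fits were 15.9% within 10 Mb (interval 10.5% to 23.2%) and 12.4% on other chromosomes. Without null replicate 3, null replicate 1 or wild-type replicate 1 the share without offsets within 10 Mb was 17.7%, 19.2% and 20.9%. Calls over all genes fell in the same fits, from 3851 to 2454, 2565 and 2760. These shares are therefore not to be read against the 24.5% of the full fit. Genes are not independent, so the intervals describe counting error alone. The 6 genes called in both fits that lie nearest to *Pax3* were *Acsl3* (-0.33), *Slc4a3* (0.44), *Asic4* (0.65), *Speg* (0.38), *Des* (-0.36) and *Dnpep* (0.25). *Asic4*, an ion channel gene, had 33.4, 28.1 and 29.9 CPM in null and 18.3, 22.8 and 17 CPM in wild-type embryos, and *Acsl3*, a fatty acid ligase gene, 78, 72.2 and 75.6 against 98.8, 87.4 and 94.8 CPM. *Speg* and *Des* are both expressed in striated muscle and lay on opposite sides of 0.

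Markers of other cell types in the embryo were also counted. Called in both fits were 3 lower and 1 higher of 20 hepatocyte markers, 1 lower of 18 erythroid markers, 1 higher of 18 endothelial markers and 1 higher of 16 epidermal markers. For macrophages it was 1 lower and 1 higher of 13, and none of 12 platelet or 3 mast cell markers was called. Over all genes tested 3.87% were lower and 8.68% higher in both fits. The hepatocyte shares were 15% lower and 5% higher, and the macrophage shares 7.69% each. The erythroid share lower was 5.56%, and the endothelial and epidermal shares higher were 5.56% and 6.25%. Summed levels of the erythroid markers were 8567 to 11047 CPM in null and 6685 to 9417 CPM in wild-type embryos and overlapped. Those of the hepatocyte markers were 1241 to 1350 and 1411 to 1758 CPM and did not, and *Afp* had a log2 fold change of -0.38 (edgeR adjusted *P* = 0.0007). Of 12 lens markers, with a median principal transcript of 831 nt, 4 (33.3%) were higher in both fits. With offsets for the principal transcript 2 of these were also called. The lens sum was 83.6 to 107 against 63.1 to 73.2 CPM, and the median log2 fold change was 0.46, and 0.29 with these offsets. *Crybb1*, a crystallin of lens fibres, had 11.3, 9.81 and 11.3 against 5.76, 5.7 and 5.0 CPM (0.97, 0.60 with offsets). *C1qc* (macrophages) had 0.76, *Mrc1* (also macrophages) -0.41, *Apoa2* (hepatocytes) 0.70 and *Krt15* (epidermis) 0.68. Calls were lost for *Rhag* without null replicate 2 or 3 or wild-type replicate 1 or 2, for *Mrc1* without null replicate 1 or 2 or wild-type replicate 1 or 2, for *Sox17* without null replicate 1 or 2 or wild-type replicate 1, for *Fga* without null replicate 1, 2 or 3 or wild-type replicate 1 or 3, for *Cryaa* without null replicate 1 or 3 or wild-type replicate 1 or 2 and for *Cryba1* without null replicate 3 or wild-type replicate 1 or 2. The part of these cell types in the results above was not tested.

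To ask whether the changes were particular to the *Pax3* line, the null effect in the *Carm1* line was subtracted from it in 1 fit of all 12 libraries. The 2 contrasts share no embryo. Because the lines were kept in separate colonies, effects of the mutated gene and of strain background on these differences cannot be told apart. By edgeR's quasi-likelihood test of this interaction 3115 genes (19.1% of those tested) differed between the lines, 2081 of them also with offsets and with the same sign. *Myod1* had an interaction of -1.22 on the log2 scale (edgeR adjusted *P* = 1.0e-07), and its log2 fold change in the *Carm1* line was -0.06. *Sox10* had -0.95 (adjusted *P* = 3.5e-06) and *Dbh* -2.26 (adjusted *P* = 1.7e-05). *Acta1* was lower in both lines, with log2 fold changes of -0.69 and -0.90, and its difference between the lines did not pass the threshold (0.20, adjusted *P* = 0.087). *Sox2* was higher in both (0.29 and 0.33, interaction -0.05, adjusted *P* = 0.71). *Pax3* had -0.82 (adjusted *P* = 2.9e-05) and was higher in the *Carm1* line by 0.37.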

How the data were processed

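Polyadenylated RNA of the 6 embryos was sequenced as paired 150 bp reads. The authors aligned the reads to mm10 with STAR and counted them per gene with featureCounts, and the deposited values are these raw counts. Versions, strandedness and how multi-mapping reads were handled are not given in the sources used here. Groups were taken from the sample labels. Of 23420 gene symbols 21777 matched the GRCm38 annotation as written and 1265 through an older symbol.

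Counts were tested in edgeR 4.0.16 (R 4.3.3) with TMM factors, filterByExpr, the robust quasi-likelihood fit and a threshold of 0.05 on the adjusted *P*. Standard errors are the absolute log2 fold change divided by the square root of the F statistic. Offsets were splines with 5 degrees of freedom of each library's deviation from the gene mean (prior count 0.5) on log2 exonic length and on GC. Genes without a length kept the TMM offset. Offsets for the APPRIS principal transcript were chosen after seeing the data. The tests were tried on simulated data first. DESeq2 1.42.0, which the study's methods name, was an alternative, with other scalings, filters, a term for Y-linked counts, a fit of all 12 libraries and fits that left out each library. Promoter sequence is from RefSeq (GRCm38.p6).

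Named genes were *Pax3*, up to 4 members per direction of each list by size of change among genes called in both fits, other list members whose role was needed, the 12 leading genes per direction (separate groups, mean CPM of 1 or more), the 5 per direction with the smallest *P*, and the 6 called genes nearest to *Pax3*. Some genes that these rules name are not reported here. Members and lists were chosen with earlier results of these data known.

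Both groups carry the replicate numbers 1 to 3. Deviations of same-numbered embryos from their group means correlated at 0.21, -0.11 and 0.31 over genes, so the numbers were not taken to pair the embryos. Replicates differed by more than counting error (chi-square per degree of freedom 4.48 to 13.6).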

Additional observations from a re-analysis of the deposited data

Results flagged for a closer look

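Of the 23 plotted genes with the largest changes, 21 had an effect of *Pax3* loss that differed from the effect of *Carm1* loss by the edgeR interaction test, with and without offsets for length and GC. These genes were chosen for their change in the *Pax3* line, which the interaction contains, so the count describes them and is no independent result. Of all genes tested, 19.1% had an interaction without offsets. Among the genes lower in *Pax3* null embryos the interaction, the *Pax3* line log2 fold change minus that of the *Carm1* line, was -2.26 for *Dbh*, -1.66 for *Ppp1r1c*, -1.71 for *Scn10a*, -1.28 for *Cdhr1*, -1.81 for *Tlx2*, -1.48 for *Mstn*, -0.69 for *Pirt*, -0.83 for *Ptprr* and -1.24 for *Musk*. *Pirt*, *Ptprr* and *Ppp1r1c* were also called lower in the *Carm1* line without offsets. Their log2 fold changes there were -0.76, -0.49 and -0.45 (edgeR adjusted *P* = 0.00032, 0.026 and 0.031). For these genes the interaction is a difference in size. Among the genes higher in *Pax3* null embryos it was 3.25 for *Mir219-1*, 2.51 for *Nr2c2ap*, 2.45 for *Rps29*, 2.26 for *Snord104*, 2.21 for *Atp5k*, 2.12 for *Rps28*, 1.63 for *2610019E17Rik*, 1.87 for *Rpl38*, 1.73 for *Tomm7*, 1.69 for *2010003O02Rik*, 1.57 for *Ndufa1* and 1.72 for *AA465934*. The interactions of *Rn45s* and *Myom2* did not pass the threshold in both fits. Groups of 3 embryos are too small for a search for outlying libraries.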

How the results depend on the processing

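The number of genes called without offsets (3851) lay between 2454 (without null replicate 3) and 4103 (without wild-type replicate 2) when a library was left out. Called in both fits (1973) were 1293 to 1876, lowest without null replicate 1. With offsets for the principal transcript 2535 genes were called, and *Hoxd11* changed sign to -0.14 (edgeR adjusted *P* = 0.27). DESeq2 called 3304 genes without offsets, among them 1787 of those called in both fits. The slope on length was -0.115 over genes averaging 10 CPM or more. The share of genes called within 10 Mb of *Pax3* was 19% with offsets and 17.7% to 28.9% with a library left out. Calls over all genes changed in these fits too, to 2761 with offsets and 2454 to 4103 with a library left out. The cause of these differences was not tested, and fits that left out a library also had fewer samples. Of the 123 named genes, 18 kept their direction but lost the call with the principal-transcript offsets, and 7 to 16 in the fits that left out a library. In DESeq2 112 kept the call and 5 lost it. Others, among them *Dbh* and *Mir219-1*, were given no adjusted *P* by DESeq2 and are in neither count.

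With the replicate number as a block (replicate block), 4177 genes were called without offsets, 2823 with offsets, 2063 in both and 3094 in the comparison of the lines. Not every embryo correlated best with its own number. Of the named genes 2 lost the call without offsets and 3 with them.

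With 3 embryos a group, changes that are small against the spread between embryos cannot be seen, and genes near 1 CPM rest on few counts. The trend with length and the genotype cannot be told apart.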
